A study of Homo sapiens with 24 samples.

Results

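The proteasome is the multi-subunit protease that degrades ubiquitin-tagged proteins. The genes of its subunits, regulators and dedicated assembly chaperones were followed here in SKBR3 cells, a human breast cancer line with amplified ERBB2. The members were all protein-coding genes of the count table whose symbol begins with PSMA, PSMB, PSMC, PSMD, PSME or PSMG and a digit, leaving out PSMB8 and PSMB9. This gave 45 of 14493 genes, and all 45 passed the filter on low counts in every comparison. By role they were 7 subunits of the 20S alpha ring, 8 genes of the 20S beta ring, 6 ATPases and 11 non-ATPase subunits of the 19S particle, 3 chaperones of the 19S base (PSMD5, PSMD9 and PSMD10), 4 activators and 4 chaperones of the 20S core. The symbol rule also took in PSMC3IP, a factor of homologous recombination, and PSME3IP1, a protein named as a partner of PSME3. Neither is a proteasome subunit, which leaves 43 genes that fit the name.

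The study compared block of fatty acid synthesis with established drugs of therapy-induced senescence by RNA-seq, in 24 libraries of 8 groups with 3 replicates each. Untreated cells were taken at day 0 and at day 7, and drug-treated cells were given fresh drug at day 3 and collected at day 7. The 6 drugs were ND-646, an inhibitor of acetyl-CoA carboxylase, at 250 nmol/L; TVB-3166, an inhibitor of fatty acid synthase, at 250 nmol/L; bleomycin, a DNA-breaking antibiotic, at 10 µmol/L; doxorubicin, a topoisomerase poison, at 10 nmol/L; alisertib, an Aurora A inhibitor, at 500 nmol/L; and palbociclib, an inhibitor of CDK4 and CDK6, at 1 µmol/L. All groups come from one cell line, and no label ties the replicates to separate cultures, so p-values measure only the spread between these samples.

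As background, the 20S core is a barrel of stacked rings. The outer rings hold alpha subunits, which gate the entry, and the inner rings hold beta subunits, of which PSMB5, PSMB6 and PSMB7 carry the active sites. In cells exposed to interferon, PSMB10 takes the place of PSMB7 in the immunoproteasome. The 19S particle docks on the core, binds ubiquitin through receptors such as PSMD4, removes ubiquitin through PSMD14 and unfolds the substrate with its ring of PSMC ATPases. Alternative caps are formed by PSME1 with PSME2, by PSME3, or by PSME4. When proteasome activity falls short, the transcription factor NFE2L1 is processed by NGLY1 and DDI2 and raises transcription of the subunit genes together.

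The table held raw read counts, with totals of 29405121 to 44316330 per library. Levels are given below as CPM, read counts scaled to library size after TMM adjustment, a method that sets the typical gene equal between libraries. The members were well covered, with a median of 3431 reads per library against 705 over all genes, and 3 members lay under the median of all genes. Marker levels in this paragraph are CPM of library totals, without TMM adjustment. All 7 SKBR3 markers examined were present, ERBB2 at 4938 to 8393 CPM. Of 8 markers of immune, stromal and endothelial cells, COL1A1 (6.12 to 15.5 CPM) and VWF (0.0673 to 1.44 CPM) were measured, and the other 6 had no values in the counts used here. The 3 libraries of a group were compared by a chi-square statistic of their counts per degree of freedom, which was 13.4 to 52.8 in the other replicate pairs. ND-646 replicate 1 stood apart from its group at 146 and 159, against 13.4 between the other ND-646 libraries. Untreated day-0 replicate 1 stood apart as far, at 171 and 172 against 18.3, and it belongs to the reference of every comparison with day 0. These had the lowest TMM factors, 0.785 and 0.896, against 0.921 to 1.08 in the others. The ND-646 results of members are therefore given with and without replicate 1, and the counts of calls against day 0 with and without day-0 replicate 1. In bulk RNA, fewer cells of a type and less of an mRNA per cell cannot be told apart. Of the members, 17 have annotated pseudogenes, PSMC1 with 13 and PSME2 with 6 the most, and 12 overlap exons of another listed gene. The strand setting of the counting is not given in the sources used here, so reads of such pairs may have been shared.

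Members differed widely in level. Per kilobase of the canonical transcript, day-0 cells held most of PSMD3, a subunit of the 19S lid, at 339 ± 25.9 CPM per kb (SD, n = 3), followed by PSMA7, an alpha subunit, at 302 ± 23.1. PSMD2, a scaffold subunit of the 19S base, stood at 229 ± 25.8 and PSMB4, a structural beta subunit, at 224 ± 23.0, within the spread of each other. The active-site subunits lay lower, PSMB5 at 169 ± 9.63, PSMB7 at 119.9 ± 15.9 and PSMB6 at 107 ± 7.78 CPM per kb, and PSMB7 and PSMB6 overlapped in spread. PSMB10 held place 42 of 45, at 12.5 ± 3.47 CPM per kb. Under it came the base chaperone PSMD9, the core chaperone PSMG4 and, last, PSMC3IP at 3.02 ± 0.265 CPM per kb. Subunits of one ring also differed, with PSMA4 at 31.2 ± 1.05 CPM per kb beside PSMA7. Much of this gap comes from the lengths used, 4378 bases for PSMA4 and 962 for PSMA7. In CPM, day-0 libraries held 137, 132 and 141 of PSMA4 and 311, 292 and 267 of PSMA7. These levels rest on the length of 1 transcript per gene.

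**Figure D1:**
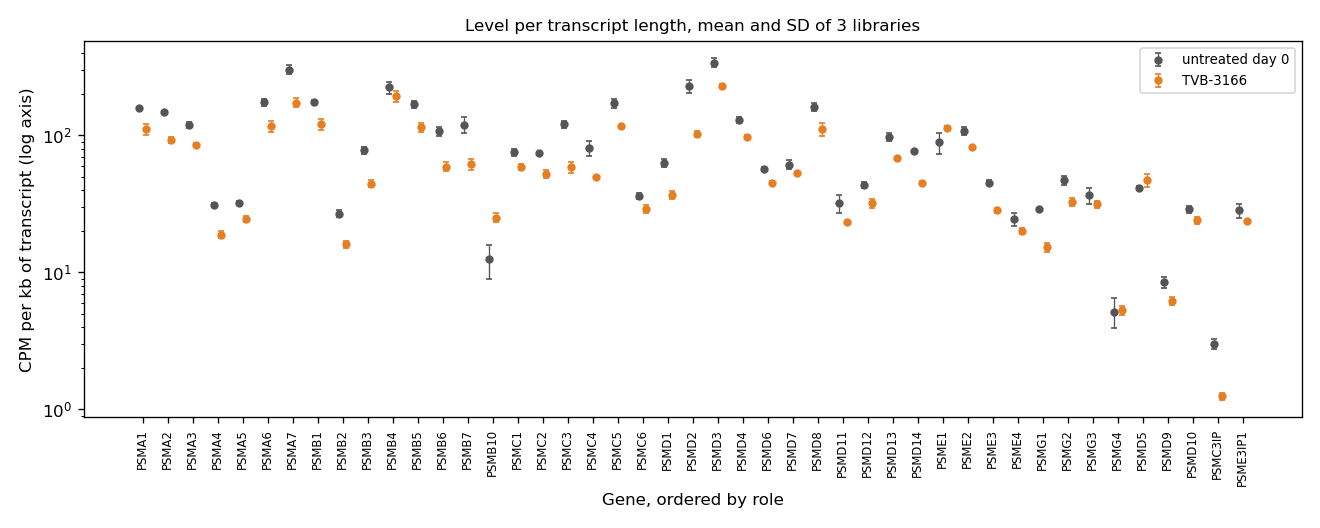
Levels of the 45 genes per kilobase of transcript in untreated day-0 cells and in TVB-3166 cells, as the mean and SD of 3 libraries on a log axis. PSMD3 is highest at day 0 and PSMC3IP lowest, and most means for TVB-3166 lie under those for day 0, PSMB10 and PSME1 being among the exceptions.

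Added up over the 45 genes, the level was 7100, 7206 and 6897 CPM in the day-0 libraries and 5915, 5588 and 5920 CPM in untreated cells at day 7. TVB-3166 cells held 5014, 4747 and 4687 CPM, palbociclib cells 4955, 4999 and 4729 CPM and alisertib cells 5088, 5212 and 5150 CPM. Bleomycin cells held 5314, 4981 and 5171 CPM and doxorubicin cells 5063, 5428 and 5072 CPM. These 5 drug groups overlapped neither untreated group, and day-7 cells lay between them and day-0 cells. The ND-646 libraries split, with 6744 CPM in replicate 1 against 4565 and 4618 CPM in the others. As a share of all counts, with no scaling, the members took 0.530% of ND-646 replicate 1 and 0.433% of each other ND-646 library, against 0.636 to 0.716% at day 0.

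**Figure D2:**
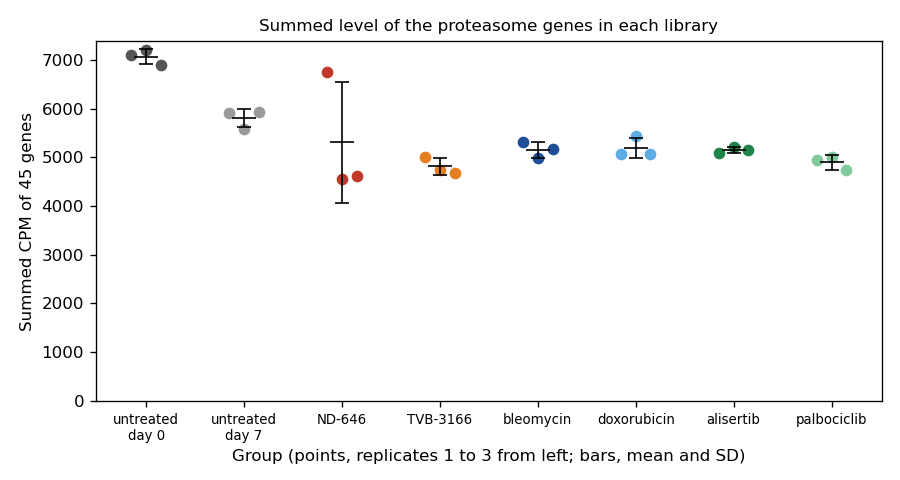
Summed CPM of the 45 genes in each of the 24 libraries (points), with the mean and SD of each group (bars). Day-0 libraries lie at 6897 to 7206 CPM, day-7 untreated libraries at 5588 to 5920 CPM, and all drug libraries but ND-646 replicate 1 at or under 5428 CPM.

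Time in culture was compared first, in untreated cells at day 7 against day 0. The labels name no refeed for these cells, so time and any depletion of the medium cannot be told apart. By edgeR's quasi-likelihood test, with p-values adjusted over all genes tested after Benjamini and Hochberg, 3 members fell and 0 rose, where 0.198% of all genes were lower and 0.389% higher. The 3 were PSMB7, with a log2 fold change of -0.63 ± 0.10 (SE, adjusted p = 0.0438), the ATPase PSMC3, -0.52 ± 0.09 (adjusted p = 0.0474), and PSMB6, -0.50 ± 0.09 (adjusted p = 0.0474). At an unadjusted p under 0.05, 23 members were lower (11.7% of all genes) and 0 higher (12.2%). For 32 members every day-7 library lay under every day-0 library (15.8% of all genes), and for 1, PSME1, above it (13.9%). The median member differed by -0.19 on the log2 scale, and the median gene of the table by 0.01. The adjusted calls lay close to the threshold. DESeq2 called 13 members lower and 0 higher, and a fit with the replicate number as a block called 9 lower. Shares of all genes are not given for these fits, so the counts cannot be set against them. Library totals in place of TMM called 0 lower (0.0293% of all genes). Leaving out 1 library gave 0, 0 and 0 lower for day-7 replicates 1, 2 and 3, and 2, 0 and 1 for day-0 replicates 1, 2 and 3.

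Against day 0, most members fell in 5 of the 6 drug groups, and fewer in ND-646 cells. The same 3 day-0 libraries serve all of these comparisons, so their outcomes are not independent of each other. In TVB-3166 cells 37 fell (27.7% of all genes tested) and 2 rose (27.4%), with a median of -0.52 on the log2 scale. In palbociclib cells 38 fell (27.2%) and 2 rose (26.0%), median -0.49. In alisertib cells 34 fell (19.6%) and 0 rose (17.7%), median -0.44. At an unadjusted p under 0.05 alisertib had 35 lower (24.6%) and 0 higher (22.7%), and DESeq2 called 0 higher. In doxorubicin cells 34 fell (24.8%) and 2 rose (23.7%), median -0.42, and in bleomycin cells 33 fell (25.3%) and 3 rose (24.1%), median -0.41. In ND-646 cells 12 fell (18.8%) and 2 rose (19.1%), median -0.35. The median of all genes lay within 0.02 of 0 in each. Without ND-646 replicate 1, 39 members fell (27.8%) and 2 rose (27.1%) with ND-646, median -0.61. Its count of lower members was 6 without day-0 replicate 2 and 7 without ND-646 replicate 2 or 3 or day-0 replicate 3. Shares of all genes are not given for these fits. Scaling by library totals in place of TMM gave 22 lower (21.8%) and 1 higher (13.9%) with ND-646.

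Without day-0 replicate 1, members called were 39 lower (27.3%) and 1 higher (27.0%) with TVB-3166, 38 lower (25.3%) and 2 higher (25.7%) with palbociclib, 37 lower (18.6%) and 0 higher (18.9%) with alisertib and 36 lower (24.7%) and 2 higher (23.7%) with doxorubicin. The counts were 32 lower (23.0%) and 4 higher (21.9%) with bleomycin, 9 lower (14.2%) and 1 higher (13.7%) with ND-646 and 2 lower (0.291%) and 0 higher (0.393%) in untreated cells at day 7. Medians were then -0.53, -0.52, -0.45, -0.48, -0.47, -0.37 and -0.21 in the same order. Of the members described gene by gene below, the calls lost without this library were PSME1 with ND-646, PSMG1 with ND-646, PSME1 with TVB-3166, PSME4 with TVB-3166 and PSMB6 at day 7.

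By the libraries themselves, with no overlap between the drug and day-0 groups, TVB-3166 had 39 members lower (31.8%) and 2 higher (30.8%) and palbociclib 40 members lower (31.7%) and 2 higher (30.6%). Bleomycin had 39 members lower (31.1%) and 4 higher (28.4%) and doxorubicin 37 members lower (30.4%) and 2 higher (28.1%). Alisertib had 35 members lower (26.2%) and 0 higher (24.4%) and ND-646 16 members lower (25.8%) and 2 higher (26.0%), where percentages are again shares of all genes. At a fold of at least 2 and an unadjusted p under 0.05, ND-646 had 2 lower (9.29%) and 1 higher (11.4%), TVB-3166 3 lower (6.75%) and 1 higher (10.9%), bleomycin 3 lower (7.30%) and 1 higher (11.5%) and palbociclib 3 lower (6.15%) and 0 higher (10.5%). Alisertib had 0 lower (1.44%) and 0 higher (6.47%), doxorubicin 0 lower (2.90%) and 0 higher (10.0%) and untreated cells at day 7 0 lower (0.330%) and 0 higher (1.66%). Most changes of members were thus smaller than this fold.

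**Figure D3:**
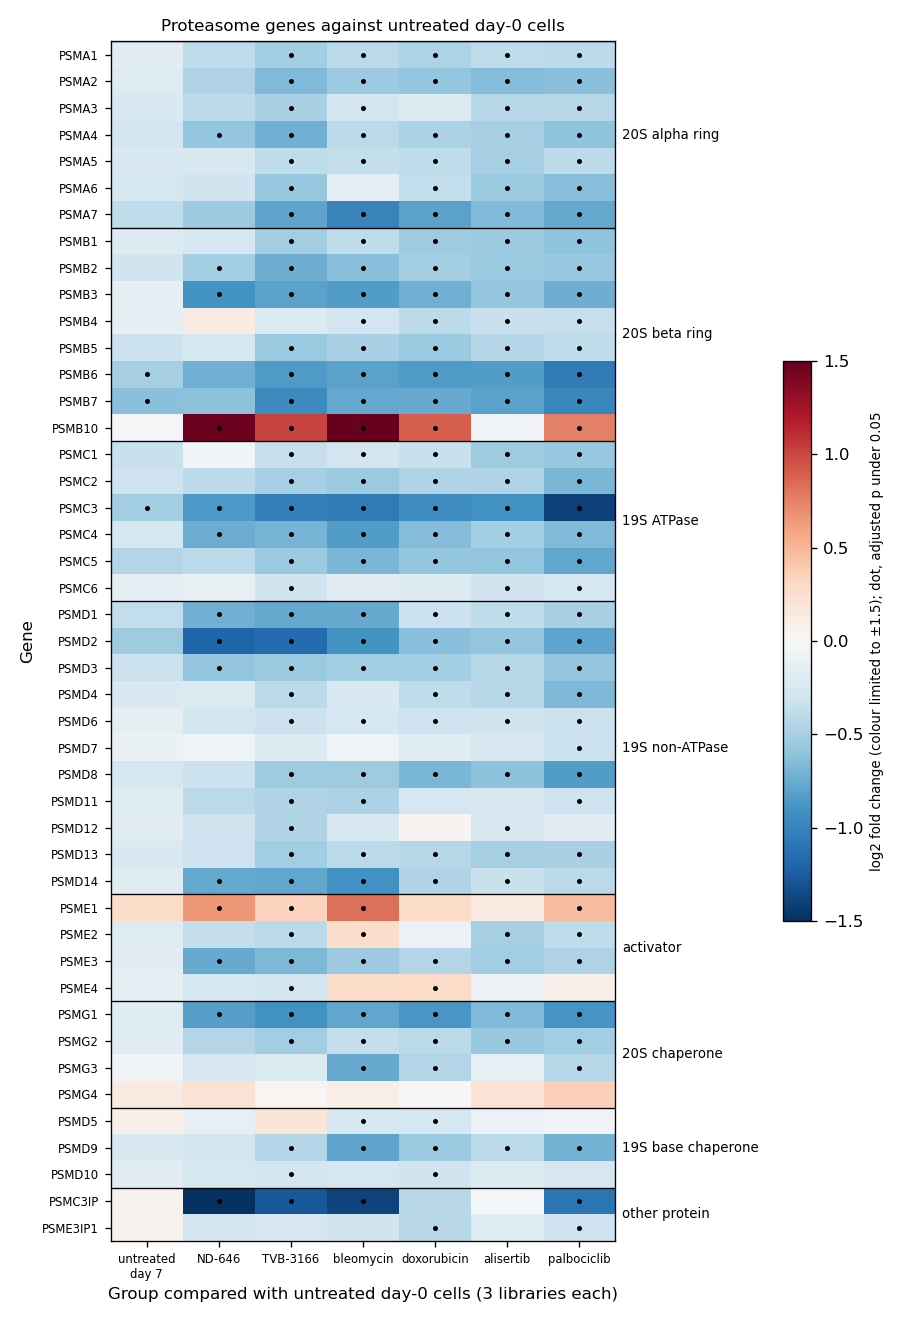
Log2 fold changes of the 45 genes, ordered by role, in untreated day-7 cells and each drug group against untreated day-0 cells, 3 libraries each. Blue marks lower and red higher levels, colours are limited to ± 1.5, and dots mark an adjusted p under 0.05. PSMB10 and PSME1 stand out in red among mostly blue rows, and the ND-646 column has fewer dots than the other drug columns.

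Each drug was also set against untreated cells of the same age. The labels name a refeed at day 3 for drug-treated cells and none for untreated day-7 cells. Drug and refeed therefore cannot be told apart in these comparisons. Against day 7, TVB-3166 had 27 members lower and 1 higher (26.1% and 25.4% of all genes), palbociclib 29 and 3 (22.9% and 22.0%) and bleomycin 20 and 4 (23.2% and 22.4%). Doxorubicin had 18 and 3 (21.5% and 21.9%), alisertib 16 and 0 (9.49% and 9.55%) and ND-646 5 and 1 (17.1% and 17.2%). Medians were -0.26 for TVB-3166, -0.25 for palbociclib, -0.17 for bleomycin, -0.17 for doxorubicin, -0.16 for alisertib and -0.15 for ND-646. Each was closer to 0 than the median of the same drug against day 0. Without ND-646 replicate 1, that drug had 34 lower and 1 higher (28.3% and 26.7%), with a median of -0.35. Of the members described gene by gene below, some calls against day 0 were lost against day 7. They were PSMB5 with bleomycin, alisertib and palbociclib, and PSMB7 with bleomycin, alisertib and doxorubicin. PSMD4 lost those with TVB-3166, alisertib and doxorubicin, PSMD2 those with alisertib and doxorubicin, and PSMD14 that with alisertib. Lost too were PSME1, PSMG1 and PSMC3 with ND-646, PSME1 and PSME4 with TVB-3166, PSME2 with palbociclib and PSMA6 with doxorubicin.

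Within the 20S core, all 7 alpha subunits fell with TVB-3166, alisertib and palbociclib, 6 with bleomycin and doxorubicin, and 1, PSMA4, with ND-646. Medians over the alpha ring ran from -0.39 with ND-646 to -0.60 with palbociclib on the log2 scale. Without ND-646 replicate 1, all 7 alpha subunits fell with ND-646, with log2 fold changes from -0.49 for PSMA5 to -0.86 for PSMA7. The lowest single value was that of PSMA7 with bleomycin, a fold of 0.499 (adjusted p = 9.79e-05). Of the 8 beta genes, 7 fell with bleomycin, doxorubicin, alisertib and palbociclib, 6 with TVB-3166 and 2 with ND-646, and PSMB10 alone rose. Without ND-646 replicate 1, all beta genes but PSMB4 and PSMB10 fell with ND-646.

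PSMB7, of trypsin-like activity, had CPM of 135, 115 and 104 at day 0 and 75.7, 73.3 and 77.7 at day 7. Drug groups had 66.9, 56.6 and 58.6 with TVB-3166, 84.9, 57.6 and 65.3 with bleomycin, 67.3, 77.0 and 63.5 with doxorubicin, 69.8, 67.2 and 66.9 with alisertib, 62.1, 59.5 and 58.4 with palbociclib, and 115, 55.8 and 62.2 with ND-646. All drug libraries but ND-646 replicate 1 lay under the day-0 range, and those of TVB-3166, alisertib and palbociclib also lay under the day-7 range. Against day 0 its log2 fold change was -0.98 ± 0.11 with palbociclib (SE, adjusted p = 3.99e-05) and -0.96 ± 0.12 with TVB-3166 (adjusted p = 4.91e-05). With ND-646 it was -0.62 ± 0.26 (adjusted p = 0.0918), and -1.01 ± 0.13 without replicate 1 (adjusted p = 1.89e-04).

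PSMB6, of caspase-like activity, had CPM of 94.9, 87.3 and 82.1 at day 0 and 59.7, 61.3 and 64.3 at day 7. Drug groups had 45.5, 42.1 and 39.8 with palbociclib, 52.9, 46.2 and 47.1 with TVB-3166, 54.1, 48.2 and 48.6 with bleomycin, 46.9, 52.7 and 46.1 with doxorubicin, 46.8, 52.4 and 48.6 with alisertib, and 81.2, 39.8 and 41.9 with ND-646. No drug library reached the lowest day-0 value, ND-646 replicate 1 coming closest. The log2 fold change against day 0 was -1.05 ± 0.10 with palbociclib (SE, adjusted p = 1.41e-05) and -0.84 ± 0.09 with alisertib (adjusted p = 2.26e-04). With ND-646 it was -0.72 ± 0.26 (adjusted p = 0.056), and -1.12 ± 0.11 without replicate 1 (adjusted p = 3.93e-05).

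PSMB5, of chymotrypsin-like activity and the main target of proteasome inhibitor drugs, had CPM of 177, 187 and 166 at day 0 and 144, 133 and 144 at day 7. Drug groups had 130.0, 116 and 114 with TVB-3166, 135, 126 and 117 with bleomycin, 122, 123 and 112 with doxorubicin, 130.0, 133 and 127 with alisertib, 146, 135 and 124 with palbociclib, and 217, 114 and 116 with ND-646. ND-646 replicate 1 was above all day-0 libraries, and every other drug library was under them. PSMB5 fell against day 0 with the 5 drugs other than ND-646, with log2 fold changes of -0.39 to -0.56, the palbociclib call being lost with library totals in place of TMM (-0.26, adjusted p = 0.054). Against day 7 the calls were lost with bleomycin (-0.15, adjusted p = 0.194), alisertib (-0.10, adjusted p = 0.336) and palbociclib (-0.05, adjusted p = 0.652). With ND-646 the value against day 0 was -0.26 ± 0.24 (SE, adjusted p = 0.417), and -0.63 ± 0.10 without ND-646 replicate 1 (adjusted p = 7.07e-04).

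The 6 ATPases of the 19S base all fell with TVB-3166, alisertib and palbociclib, 5 fell with bleomycin and doxorubicin and 2 with ND-646. Without ND-646 replicate 1, all 6 fell with ND-646. PSMC3 had the lowest log2 fold change of the 6 with each drug. Its CPM was 193, 192 and 172 at day 0 and 139.7, 118 and 127 at day 7, and drug groups had 72.7, 71.5 and 66.1 with palbociclib, 100.1, 83.0 and 87.6 with TVB-3166, 100.2, 77.6 and 87.5 with bleomycin, 95.1, 103 and 92.2 with doxorubicin, 102, 95.4 and 99.1 with alisertib, and 143, 80.3 and 87.7 with ND-646. Palbociclib libraries lay under every other library, and all drug libraries lay under day 0. The log2 fold change against day 0 was -1.41 ± 0.09 with palbociclib (SE, adjusted p = 2.00e-06), -1.07 ± 0.12 with bleomycin (adjusted p = 1.27e-04) and -1.04 ± 0.10 with TVB-3166 (adjusted p = 1.11e-05). With doxorubicin and alisertib it was -0.93 ± 0.09 and -0.91 ± 0.08. With ND-646 it was -0.86 ± 0.21 (adjusted p = 0.0136), a call lost without day-0 replicate 2 (adjusted p = 0.0515), and -1.15 ± 0.11 without ND-646 replicate 1 (adjusted p = 2.73e-05).

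PSMC4, another ATPase of the ring, had CPM of 123, 159.6 and 144 at day 0 and 119, 112 and 120.2 at day 7. Drug groups had 102, 76.1 and 78.9 with ND-646, 87.5, 89.4 and 86.5 with TVB-3166, 81.2, 72.7 and 85.3 with bleomycin, 89.9, 94.999 and 86.0 with doxorubicin, 98.7, 99.4 and 101 with alisertib, and 91.1, 94.0 and 84.3 with palbociclib. All drug libraries were under both untreated groups, ND-646 replicate 1 included. It fell with all 6 drugs against day 0, with log2 fold changes from -0.52 ± 0.10 with alisertib (SE, adjusted p = 0.00348) to -0.83 ± 0.12 with bleomycin (adjusted p = 5.29e-04). The ND-646 value was -0.74 ± 0.17 (adjusted p = 0.00813), and -0.88 ± 0.13 without ND-646 replicate 1 (adjusted p = 3.18e-04).

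Of the 11 non-ATPase subunits, 10 fell with TVB-3166 and palbociclib, 9 with alisertib, 8 with bleomycin and doxorubicin and 4 with ND-646, and 0 rose against day 0. Without ND-646 replicate 1, all 11 fell with ND-646, PSMD7 narrowly (adjusted p = 0.0479). PSMD2 had CPM of 745, 659 and 595 at day 0 and 499, 419 and 456 at day 7. Drug groups had 323, 274 and 283 with ND-646, 308, 284 and 304 with TVB-3166, 394, 318 and 355 with bleomycin, 399.7, 370.3 and 382 with palbociclib, 424, 442 and 421 with doxorubicin, and 455, 429 and 456 with alisertib. The first 4 of these groups were under all untreated libraries, while doxorubicin and alisertib overlapped day 7. The log2 fold change against day 0 was -1.20 ± 0.16 with ND-646 (SE, adjusted p = 6.29e-04) and -1.15 ± 0.11 with TVB-3166 (adjusted p = 9.08e-06). With alisertib it was -0.58 ± 0.10 (adjusted p = 0.00217). The ND-646 value was -1.26 ± 0.13 without ND-646 replicate 1 (adjusted p = 4.70e-05).

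PSMD14, the deubiquitinase of the lid, had CPM of 122, 121 and 121 at day 0 and 104, 106 and 108 at day 7. Drug groups had 93.4, 59.0 and 63.7 with ND-646, 73.1, 69.4 and 68.7 with TVB-3166, 74.7, 48.2 and 70.5 with bleomycin, 82.5, 89.7 and 91.8 with doxorubicin, 94.4, 97.9 and 95.3 with alisertib, and 90.042, 97.2 and 88.1 with palbociclib. Every drug library lay under every untreated one. The log2 fold change against day 0 was -0.91 ± 0.15 with bleomycin (SE, adjusted p = 0.00101), -0.78 ± 0.09 with TVB-3166 (adjusted p = 2.42e-05) and -0.77 ± 0.18 with ND-646 (adjusted p = 0.0106). The last was -0.99 ± 0.10 without ND-646 replicate 1 (adjusted p = 4.24e-05). With doxorubicin, palbociclib and alisertib it was -0.45 ± 0.08, -0.40 ± 0.08 and -0.34 ± 0.08. The alisertib call was lost with library totals in place of TMM (-0.20, adjusted p = 0.1) and in a fit of all 24 libraries (adjusted p = 0.0653).

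The ubiquitin receptor PSMD4 had CPM of 178, 175 and 162 at day 0 and 139, 146 and 150.02 at day 7. Drug groups had 108, 113 and 103 with palbociclib, 131, 127 and 130.4 with TVB-3166, 144, 147 and 147 with bleomycin, 132, 136 and 126 with doxorubicin, 121, 131 and 133 with alisertib, and 217, 118 and 119 with ND-646. Palbociclib libraries were the lowest of all, bleomycin libraries lay within the day-7 range, and ND-646 replicate 1 was the highest of the 24. PSMD4 fell with palbociclib (-0.68 ± 0.08, SE, adjusted p = 1.00e-04), alisertib (-0.42 ± 0.08), TVB-3166 (-0.41 ± 0.09) and doxorubicin (-0.38 ± 0.08). Bleomycin gave -0.23 ± 0.09 (adjusted p = 0.0641) and ND-646 -0.20 ± 0.23 (adjusted p = 0.523), or -0.54 ± 0.10 without replicate 1 (adjusted p = 0.00151). PSMD12, a lid subunit, was the one non-ATPase subunit to rise against day 7, with doxorubicin (0.24 ± 0.07, adjusted p = 0.0202).

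Assembly chaperones were divided. PSMG1, which with PSMG2 helps to build the alpha ring, had CPM of 49.5, 50.6 and 51.4 at day 0 and 44.4, 41.3 and 47.0 at day 7. Drug groups had 43.0, 22.9 and 20.4 with ND-646, 27.6, 28.2 and 24.5 with TVB-3166, 31.3, 26.0 and 30.9 with bleomycin, 25.2, 29.1 and 27.9 with doxorubicin, 30.6, 32.1 and 33.2 with alisertib, and 28.2, 27.4 and 26.8 with palbociclib. All drug libraries were under day 0, and all but ND-646 replicate 1 under day 7. It fell with all 6 drugs, with log2 fold changes of -0.66 ± 0.09 with alisertib (SE, adjusted p = 4.88e-04) and -0.91 ± 0.10 with TVB-3166 (adjusted p = 1.94e-05). With ND-646 the call (-0.83 ± 0.26, adjusted p = 0.0331) was lost when any 1 library other than ND-646 replicate 1 was left out, at adjusted p of 0.0836 to 0.104. Without ND-646 replicate 1 it was -1.23 ± 0.12 (adjusted p = 2.51e-05). PSMG4 passed the test against day 0 with 0 of 6 drugs, at log2 fold changes of 0.01 to 0.35. Of the base chaperones, PSMD9 fell with the 5 drugs other than ND-646, PSMD5 with bleomycin (-0.27 ± 0.10) and doxorubicin (-0.26 ± 0.08), and PSMD10 with TVB-3166 (-0.27 ± 0.10) and doxorubicin (-0.30 ± 0.09). Without ND-646 replicate 1, PSMD9 (-0.58 ± 0.14, adjusted p = 0.00495) and PSMD10 (-0.36 ± 0.11, adjusted p = 0.0206) fell with ND-646 too.

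**Figure D4:**
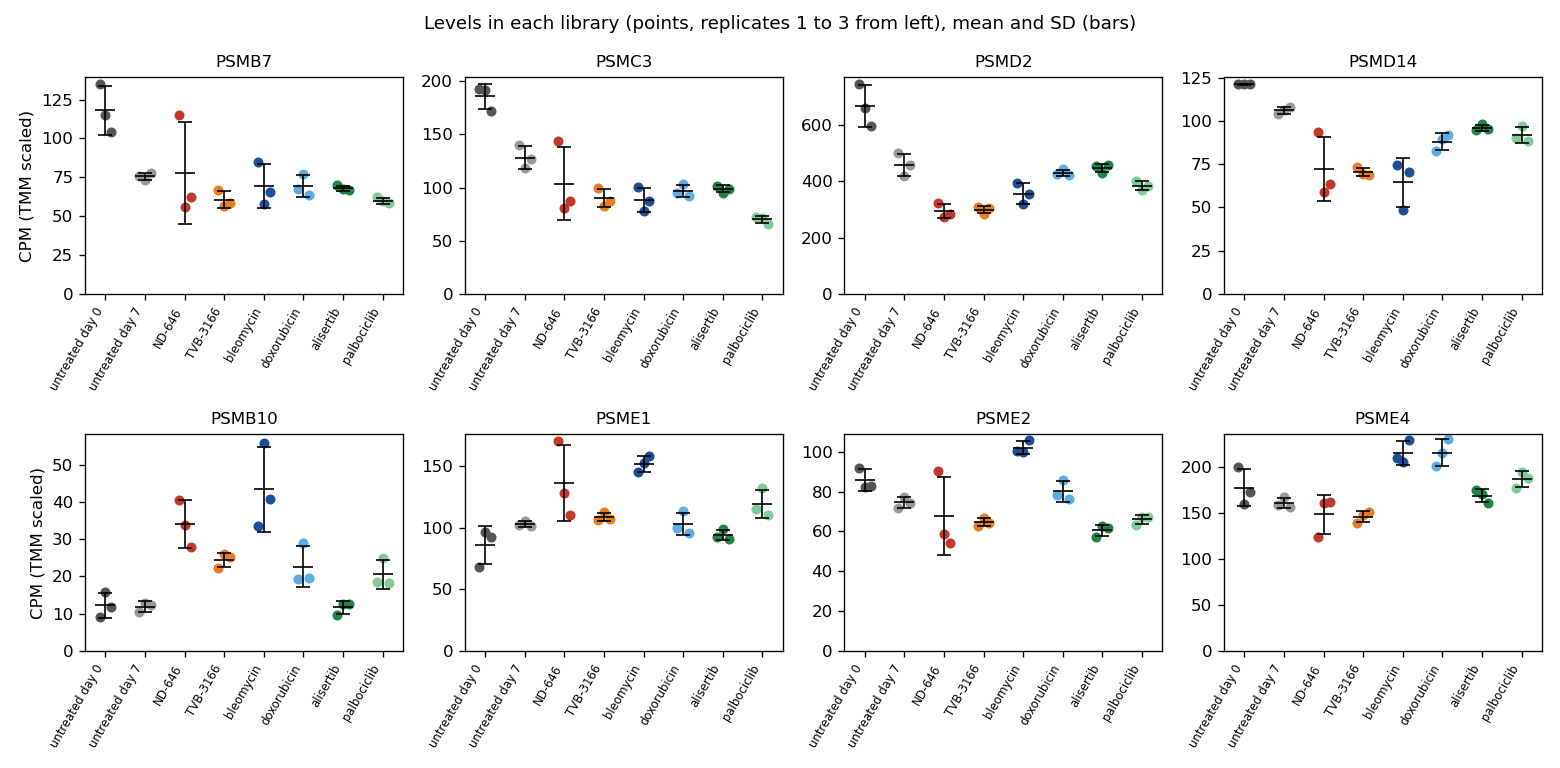
CPM of 8 members in each library (points, replicates 1 to 3 from left), with the mean and SD of each group (bars). PSMB7, PSMC3, PSMD2 and PSMD14 have their highest group mean at day 0, PSMB10 and PSME1 are high with bleomycin and ND-646, and PSME2 and PSME4 are higher with bleomycin and doxorubicin than with TVB-3166.

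Interferon-inducible members were looked at next. PSMB10 lies at chr16:67968409-67970767 on the minus strand, PSME1 at chr14:24605372-24608176 on the plus strand and PSME2 at chr14:24612571-24616779 on the minus strand (GRCh37). The RefSeq table of promoters (GRCh38.p14) held 39 of the 45 members, all but PSMA7, PSMB1, PSMB6, PSMB7, PSMD4 and PSMG3. The 250 bases before each start were searched on both strands for GAAA, any 2 bases and GAAA again (an interferon response element), for TGACNNNGC (the core of an antioxidant response element) and for CCAAT, a common promoter box. The stretches of PSMB10, PSME2 and PSME1 are shown because these genes encode the interferon-inducible beta subunit and PA28 cap, with matches in capitals. They are chr16:67936851-67937100 on the minus strand, chr14:24146611-24146860 on the minus strand and chr14:24135944-24136193 on the plus strand, each read in the direction of the gene.
PSMB10: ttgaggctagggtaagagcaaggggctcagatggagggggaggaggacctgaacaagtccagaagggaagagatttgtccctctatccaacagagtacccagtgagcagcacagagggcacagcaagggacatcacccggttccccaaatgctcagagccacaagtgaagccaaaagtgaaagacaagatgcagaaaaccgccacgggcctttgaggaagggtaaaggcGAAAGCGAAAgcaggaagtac
PSME2: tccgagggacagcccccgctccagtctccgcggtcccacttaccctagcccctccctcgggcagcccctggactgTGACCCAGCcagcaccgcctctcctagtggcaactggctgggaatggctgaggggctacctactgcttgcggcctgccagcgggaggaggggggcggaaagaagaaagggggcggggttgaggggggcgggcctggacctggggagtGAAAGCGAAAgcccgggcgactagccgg
PSME1: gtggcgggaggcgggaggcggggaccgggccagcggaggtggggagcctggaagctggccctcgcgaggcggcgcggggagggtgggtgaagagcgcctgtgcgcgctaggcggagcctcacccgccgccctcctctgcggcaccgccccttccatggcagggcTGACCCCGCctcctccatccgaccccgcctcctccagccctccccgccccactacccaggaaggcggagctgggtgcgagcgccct
PSMB10 and PSME2 each held GAAAGCGAAA, 21 and 28 bases before the start. PSME2 and PSME1 held an antioxidant response element core, 175 and 86 bases before the start. The interferon response element was in 5 of 39 member stretches (12.8%) and in 3.07% of all 27305 promoters. The antioxidant core was in 10 (25.6% against 11%). Of the 5 genes with an interferon response element match, PSMB10 rose with 5 drugs against day 0, PSME2 rose with bleomycin and fell with alisertib, TVB-3166 and palbociclib, PSMA4 fell with all 6, PSMB4 fell with 4, and PSMG4 passed the test with 0. A match is a description of the letters only.

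PSMB10 had CPM of 8.97, 15.7 and 11.9 at day 0 and 10.3, 12.9 and 12.4 at day 7. Drug groups had 33.4, 55.9 and 40.9 with bleomycin, 40.5, 33.9 and 27.8 with ND-646, 22.4, 25.9 and 25.2 with TVB-3166, 19.4, 28.9 and 19.5 with doxorubicin, 18.4, 24.987 and 18.2 with palbociclib, and 9.74, 12.7 and 12.6 with alisertib. Every library of the first 5 of these drugs lay above every untreated library, and the alisertib libraries lay within the untreated range. Against day 0 the log2 fold change was 1.84 ± 0.24 with bleomycin (SE, 3.58-fold, adjusted p = 3.07e-04) and 1.47 ± 0.23 with ND-646 (2.77-fold, adjusted p = 0.00155), or 1.34 ± 0.21 without ND-646 replicate 1 (adjusted p = 5.58e-04). It was 1.01 ± 0.18 with TVB-3166 (adjusted p = 6.52e-04), 0.90 ± 0.22 with doxorubicin (adjusted p = 0.00708) and 0.75 ± 0.20 with palbociclib (adjusted p = 0.00881). With alisertib it was -0.06 ± 0.20 (adjusted p = 0.844), the 95% interval running from -0.50 to 0.38. Per kilobase, bleomycin cells held PSMB10 at 44.4 ± 11.7 and PSMB7 at 70.4 ± 14.3 CPM per kb, where day-0 cells held 12.5 ± 3.47 and 119.9 ± 15.9.

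PSME1, a subunit of the PA28 cap, had CPM of 68.5, 96.8 and 92.6 at day 0 and 102, 106 and 102 at day 7. Drug groups had 145, 153 and 158 with bleomycin, 171, 128 and 111 with ND-646, 115, 133 and 110.4 with palbociclib, 107, 113 and 107 with TVB-3166, 100.2, 114 and 95.8 with doxorubicin, and 92.9, 98.8 and 91.3 with alisertib. Libraries of the first 4 of these drugs lay above all untreated ones, those of TVB-3166 narrowly. Against day 0 it rose with bleomycin (0.83 ± 0.14, SE, adjusted p = 0.00103), ND-646 (0.65 ± 0.20, adjusted p = 0.0309), palbociclib (0.47 ± 0.13, adjusted p = 0.011) and TVB-3166 (0.35 ± 0.12, adjusted p = 0.0351). The calls with ND-646 and TVB-3166 were lost with library totals in place of TMM (adjusted p = 0.0781 and 0.0792). That with ND-646 was also lost without ND-646 replicate 2 or any 1 day-0 library (adjusted p = 0.0583 to 0.113), and that with TVB-3166 without day-0 replicate 1 or any 1 TVB-3166 library (adjusted p = 0.0665 to 0.105). Without ND-646 replicate 1 the ND-646 value was 0.47 ± 0.15 (adjusted p = 0.0248). Against day 7, bleomycin (0.57 ± 0.08) and palbociclib (0.22 ± 0.08) passed. EMC9, on the opposite strand over part of PSME1, averaged 25.9 CPM at day 0 and 12.1 CPM with bleomycin, and its part in these values was not tested.

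PSME2, the partner of PSME1 in the same cap, had CPM of 92.0, 82.1 and 82.7 at day 0 and 71.9, 77.4 and 74.2 at day 7. Drug groups had 100.4, 99.996 and 106 with bleomycin, 78.3, 86.0 and 76.2 with doxorubicin, 62.9, 66.8 and 64.4 with TVB-3166, 57.4, 62.8 and 61.5 with alisertib, 63.4, 67.1 and 67.5 with palbociclib, and 90.4, 58.5 and 54.4 with ND-646. Bleomycin libraries were above all others, while TVB-3166, alisertib and palbociclib libraries were under both untreated groups. It fell with alisertib (-0.50 ± 0.09, SE, adjusted p = 0.00213), TVB-3166 (-0.40 ± 0.09, adjusted p = 0.00319) and palbociclib (-0.38 ± 0.09, adjusted p = 0.00406). ND-646 gave -0.35 ± 0.20 (adjusted p = 0.191), and -0.61 ± 0.11 without replicate 1 (adjusted p = 0.00122). With bleomycin it rose against day 0 (0.26 ± 0.09, adjusted p = 0.0439) and against day 7 (0.47 ± 0.08, adjusted p = 0.0016). The first of these calls was lost with library totals in place of TMM (adjusted p = 0.0759), in a fit of all 24 libraries (0.0869), and without any 1 bleomycin library or day-0 replicate 2 or 3 (0.0666 to 0.141). RNF31, on the opposite strand over part of PSME2, averaged 54.7 CPM at day 0 and 82.2 CPM with bleomycin, and its part in these values was not tested.

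PSME3, the nuclear cap, had CPM of 139, 151 and 143 at day 0 and 134, 115 and 131 at day 7. Drug groups had 84.6, 87.5 and 85.1 with ND-646, 90.6, 94.0 and 86.3 with TVB-3166, 104, 90.4 and 101 with bleomycin, 103, 112 and 101 with doxorubicin, 105, 100.2 and 96.5 with alisertib, and 107, 107 and 101 with palbociclib. Every drug library was under every untreated one, and here ND-646 replicate 1 sat with its group. The gene fell with all 6 drugs, with log2 fold changes of -0.76 ± 0.13 with ND-646 (SE, adjusted p = 0.00196) and -0.67 ± 0.09 with TVB-3166 (adjusted p = 8.82e-05), and of -0.44 to -0.55 with the others. The ND-646 value was -0.74 ± 0.10 without ND-646 replicate 1 (adjusted p = 2.20e-04).

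PSME4, the large PA200 cap, had CPM of 199.7, 159.7 and 172 at day 0 and 159, 167 and 156 at day 7. Drug groups had 209, 205 and 229 with bleomycin, 200.4, 215 and 229.8 with doxorubicin, 177, 195 and 187 with palbociclib, 174, 171 and 160.2 with alisertib, 124, 160.1 and 161 with ND-646, and 139, 148 and 150.3 with TVB-3166. Both DNA-damaging drugs lay above all untreated libraries, and TVB-3166 lay under them. Against day 0, doxorubicin gave 0.29 ± 0.10 (SE, adjusted p = 0.0394), bleomycin 0.28 ± 0.11 (adjusted p = 0.0594) and TVB-3166 -0.28 ± 0.10 (adjusted p = 0.0379). The doxorubicin call was lost with no filter on low counts (adjusted p = 0.0534) and without any 1 doxorubicin library or day-0 replicate 2 or 3 (adjusted p = 0.066 to 0.153). The TVB-3166 call was lost with the replicate block (adjusted p = 0.0562) and without any 1 TVB-3166 library or day-0 replicate 1 or 3 (adjusted p = 0.0544 to 0.111). For ND-646 it was -0.27 ± 0.16 (adjusted p = 0.234), and -0.15 ± 0.12 without ND-646 replicate 1 (adjusted p = 0.313). Against day 7, doxorubicin (0.44 ± 0.08), bleomycin (0.43 ± 0.08) and palbociclib (0.22 ± 0.07) passed.

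PSMC3IP had CPM of 3.69, 4.35 and 4.26 at day 0 and 3.84, 4.08 and 4.81 at day 7. Drug groups had 1.37, 0.897 and 1.30 with ND-646, 1.64, 1.61 and 1.81 with TVB-3166, 2.45, 0.830 and 1.40 with bleomycin, 1.94, 1.65 and 2.15 with palbociclib, 3.15, 2.31 and 3.69 with doxorubicin, and 3.90, 3.42 and 4.72 with alisertib, the lowest library holding 25 reads. The first 4 of these drugs lay under all untreated libraries, and doxorubicin and alisertib overlapped them. The log2 fold change against day 0 was -1.80 ± 0.27 with ND-646 (SE, adjusted p = 0.00114), -1.39 ± 0.35 with bleomycin (adjusted p = 0.00879), -1.27 ± 0.20 with TVB-3166 (adjusted p = 3.38e-04) and -1.09 ± 0.21 with palbociclib (adjusted p = 0.00138). The ND-646 value was -1.90 ± 0.28 without ND-646 replicate 1 (adjusted p = 3.42e-04). MLX, on the opposite strand over part of this gene, was at 50.1 to 62.7 CPM over all libraries, well above PSMC3IP itself.

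PSME3IP1 had CPM of 69.6, 86.8 and 83.6 at day 0 and 80.6, 82.7 and 83.1 at day 7. Drug groups had 60.1, 62.7 and 56.2 with doxorubicin, 62.9, 66.7 and 63.9 with palbociclib, 66.5, 68.6 and 66.0 with TVB-3166, 65.7, 62.1 and 66.9 with bleomycin, 68.0, 73.0 and 68.8 with alisertib, and 76.3, 61.2 and 60.8 with ND-646. The first 4 of these groups lay under all untreated libraries. It fell with doxorubicin (-0.41 ± 0.10, SE, adjusted p = 0.00889) and palbociclib (-0.31 ± 0.10, adjusted p = 0.0231), both calls being lost with library totals in place of TMM (adjusted p = 0.0687 and 0.234). For ND-646 it was -0.29 ± 0.16 (adjusted p = 0.176), and -0.40 ± 0.12 without ND-646 replicate 1 (adjusted p = 0.0205). The palbociclib call was also lost without palbociclib replicate 1 or 3 or day-0 replicate 2 or 3 (adjusted p = 0.0616 to 0.106).

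For comparison with the promoters above, those of PSMC3 and PSMD14 are shown as genes that fell with all 6 drugs, with CCAAT or its reverse complement in capitals. They are chr11:47426440-47426689 on the minus strand and chr2:161308175-161308424 on the plus strand (GRCh38.p14).
PSMC3: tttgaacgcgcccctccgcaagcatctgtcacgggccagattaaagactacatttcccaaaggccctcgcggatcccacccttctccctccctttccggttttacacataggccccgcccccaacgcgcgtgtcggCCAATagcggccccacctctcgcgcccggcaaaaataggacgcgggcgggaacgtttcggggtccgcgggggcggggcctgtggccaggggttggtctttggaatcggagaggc
PSMD14: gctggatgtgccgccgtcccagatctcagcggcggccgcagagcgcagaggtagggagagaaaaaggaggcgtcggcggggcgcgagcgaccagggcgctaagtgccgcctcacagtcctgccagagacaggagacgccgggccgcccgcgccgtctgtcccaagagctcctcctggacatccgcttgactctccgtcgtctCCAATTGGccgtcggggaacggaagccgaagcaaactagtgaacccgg
PSMC3 held 1 CCAAT match, and the capitals of PSMD14 are a match on each strand that overlap. Of the 11 members that fell with all 6 drugs, 6 held CCAAT and the others, PSMA4, PSMB2, PSMC4, PSMD1 and PSMD2, held none. This set was picked with ND-646 replicate 1 kept, and 39 members fell with ND-646 without that library. CCAAT was in 18 of 39 member stretches (46.2%) and in 33% of all promoters.

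The drugs were then compared with each other. Over all 6 drug groups, members differed at an adjusted p under 0.05 by edgeR's quasi-likelihood F-test in 17 of 45 cases, beside 67.3% of all genes. Without ND-646 replicate 1, 29 did, and the share of all genes in that fit is not given. The smallest adjusted p-values were those of PSMB10 (3.49e-06), PSMD2 (3.09e-05), PSME4 (4.55e-05), PSMC3IP (5.22e-05) and PSME2 (1.18e-04). Of the 7 alpha subunits, PSMA6 was among the 17 (adjusted p = 0.016).

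Between both inhibitors of fatty acid synthesis, TVB-3166 against ND-646, 0 members were lower (0.198% of all genes) and 0 higher (0.520%) by the adjusted test in edgeR. At an unadjusted p under 0.05, 1 member was lower (7.20%) and 1 higher (7.85%), and DESeq2 called 0 lower and 0 higher. The median member differed by -0.14 on the log2 scale, with 36 of 45 under 0, beside -0.01 for all genes. PSMB10 had the lowest value, -0.47 ± 0.16 on the log2 scale (SE, adjusted p = 0.236), with a 95% interval of -0.84 to -0.09. For PSMB7 the interval ran from -0.95 to 0.26, so a difference within it could not be told from 0 here. Without ND-646 replicate 1 the median changed sign, to 0.10, 0 were lower, and 1, the structural beta subunit PSMB3, was higher with TVB-3166 (0.49 ± 0.10, adjusted p = 0.0117; 6.01% of all genes).

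ND-646 and TVB-3166 together were compared with the mean of bleomycin, doxorubicin, alisertib and palbociclib. Here 8 members were lower (24.7% of all genes) and 8 higher (26.3%), and the median member differed by 0.03 on the log2 scale. Scaling by library totals in place of TMM set the median of all genes at -0.13 and gave 20 members lower (36.4% of all genes) and 0 higher (15.4%). Leaving out ND-646 replicate 1 gave 17 lower (25.4%) and 2 higher (24.4%). Lower with the inhibitors of fatty acid synthesis were PSMD2 (-0.44 ± 0.06, SE, adjusted p = 4.10e-06), PSME4 (-0.41 ± 0.06, adjusted p = 1.17e-05), PSMC3IP (-0.80 ± 0.18, adjusted p = 7.26e-04), PSME3 (-0.22 ± 0.05, adjusted p = 8.00e-04) and PSMD1 (-0.25 ± 0.07, adjusted p = 0.00364). PSMD12, PSMD14 and PSME2 were the others, and all 8 were lower also without ND-646 replicate 1. The PSME2 call (-0.19 ± 0.08, adjusted p = 0.0403) was lost in 12 of 18 fits that each left out 1 drug library (adjusted p = 0.0546 to 0.157), among them those without any 1 TVB-3166 library and without ND-646 replicate 2 or 3. The PSMD14 call (-0.24 ± 0.09, adjusted p = 0.0238) was lost without ND-646 replicate 2 or 3 or TVB-3166 replicate 2 or 3 (adjusted p = 0.0517 to 0.0908). Of the 8 higher members, PSMB10 (0.39 ± 0.13, adjusted p = 0.0134) and PSMD5 (0.20 ± 0.06, adjusted p = 0.00488) were higher also without ND-646 replicate 1, PSMB10 narrowly (adjusted p = 0.0492). The PSMB10 call was lost with library totals in place of TMM (adjusted p = 0.135). Its bleomycin libraries (33.4 to 55.9 CPM) were above those of TVB-3166 (22.4 to 25.9 CPM), and its alisertib libraries (9.74 to 12.7 CPM) were the lowest of all drugs. For 0 members all 6 libraries of one side lay under all 12 of the other (3.33% of all genes), and for 0 above them (3.72%).

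Bleomycin and doxorubicin, which damage DNA, were compared with the kinase inhibitors alisertib and palbociclib. Here 3 members were lower (16.5% of all genes) and 5 higher (16.2%). Scaling by library totals gave 8 lower (22.8%) and 3 higher (10.8%), and leaving out ND-646 replicate 1, which enters the estimate of spread, gave 5 lower (20.4%) and 10 higher (20.2%). PSMB10 was higher by 1.01 ± 0.15 on the log2 scale (SE, adjusted p = 2.56e-05), although its doxorubicin and palbociclib libraries overlapped. PSME2 was higher by 0.52 ± 0.09 (adjusted p = 1.20e-04), the alpha subunit PSMA6 by 0.33 ± 0.10 (adjusted p = 0.011) and PSME4 by 0.28 ± 0.07 (adjusted p = 0.00437). For these last 3, and for PSMC1, which missed the threshold, all 6 libraries with DNA-damaging drugs lay above all 6 with kinase inhibitors, 4 members in all (5.64% of all genes), and 0 members lay under them, as 707 of 14078 genes did. PSMA6 had CPM of 165, 162 and 160.0 with bleomycin and 131, 149.7 and 129 with doxorubicin, against 121, 126 and 118 with alisertib and 118, 119 and 107 with palbociclib. In the other groups it had 192, 173 and 169.7 at day 0, 147, 146 and 148 at day 7, 199.9, 122 and 116 with ND-646 and 132, 118 and 109 with TVB-3166. The PSME4 call was lost with library totals in place of TMM (adjusted p = 0.0782). PSME1 was near the threshold (0.24 ± 0.09, adjusted p = 0.0493) and was lost with library totals (0.183), with RLE size factors (0.0533), with no filter (0.0502) and without most single libraries. The lower members were PSMD14 (-0.32 ± 0.10, adjusted p = 0.0165), the chaperones PSMG3 (-0.33 ± 0.10) and PSMD5 (-0.20 ± 0.07).

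**Figure D5:**
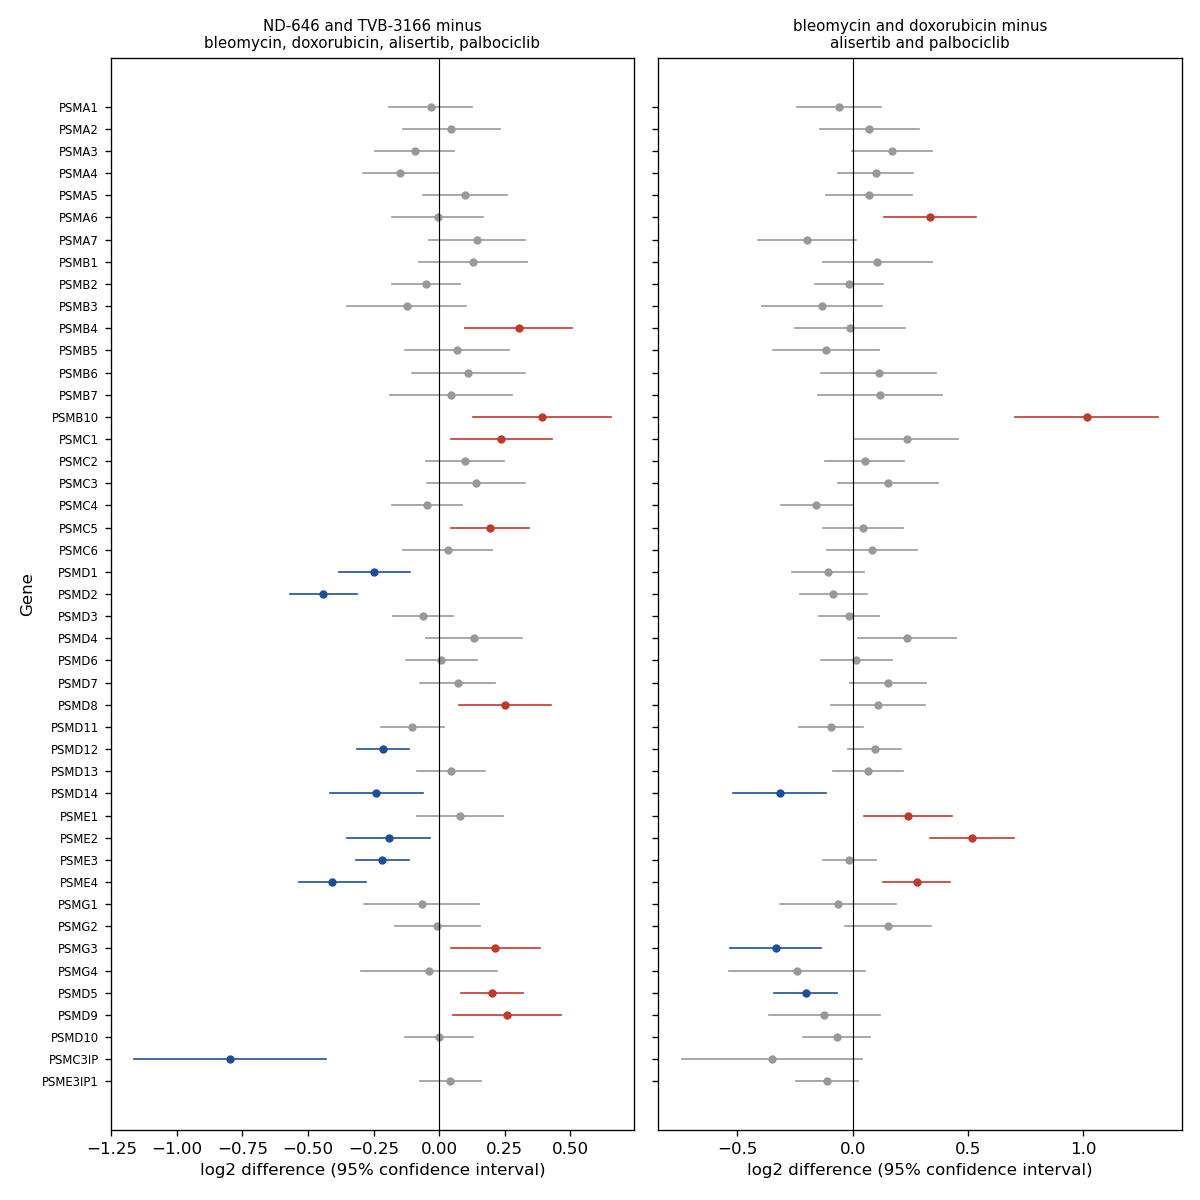
Log2 differences of the 45 genes with 95% confidence intervals, for ND-646 and TVB-3166 against the other 4 drugs (left) and for bleomycin and doxorubicin against alisertib and palbociclib (right). Red and blue mark an adjusted p under 0.05 for higher and lower levels, and grey the rest. PSMB10 lies farthest to the right in both panels, at 0.39 and 1.01, and PSMC3IP farthest to the left.

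Genes that act with the proteasome were followed as a list of 32, all of them measured. Against day 0, 13 fell and 6 rose with TVB-3166, where 27.7% of all genes fell and 27.4% rose. With palbociclib 13 and 4 (27.2% and 26.0%), with alisertib 13 and 4 (19.6% and 17.7%), with doxorubicin 12 and 7 (24.8% and 23.7%), with bleomycin 10 and 9 (25.3% and 24.1%) and with ND-646 4 and 5 (18.8% and 19.1%) did so, the shares of all genes standing in brackets. In untreated cells at day 7, 0 and 0 of the list passed. The ND-646 counts of the list are given only with replicate 1 kept. NFE2L1, the transcription factor that raises proteasome genes, had CPM of 198, 191 and 179.6 at day 0 and 159, 176 and 159 at day 7. Drug groups had 493, 415 and 505 with ND-646, 342, 335 and 382 with TVB-3166, 391, 454 and 342 with bleomycin, 289.8, 255 and 283 with doxorubicin, 216, 251 and 242 with palbociclib, and 175, 179.9 and 187 with alisertib. All libraries of the first 5 of these drugs were above all untreated ones, and in these same groups most subunit mRNAs had a log2 fold change under 0. NFE2L1 rose with these 5 drugs, with 1.07 ± 0.13 for bleomycin (SE, adjusted p = 1.84e-04) and 0.90 ± 0.10 for TVB-3166 (adjusted p = 2.06e-05), while alisertib gave -0.07 ± 0.08 (adjusted p = 0.533). NGLY1 had 49.1 to 51.3 CPM at day 0, and all drug libraries but ND-646 replicate 1 (53.7 CPM) lay under this. DDI2 lay above its day-0 range (115 to 137 CPM) with bleomycin and doxorubicin (147 to 173 CPM), and within or under it with the other drugs. Processing of the NFE2L1 protein was not tested. The core chaperone POMP (-0.35 to -0.59), the ubiquitin receptor ADRM1 (-0.44 to -0.67) and the proteasome inhibitor protein PSMF1 (-0.38 to -0.61) fell with the 5 drugs other than ND-646. ND-646 libraries had 96.3, 56.2 and 54.6 CPM of POMP, 119, 87.1 and 86.8 of ADRM1 and 152, 125 and 120 of PSMF1. All of these but replicate 1 of POMP and PSMF1 lay under all day-0 libraries, which held at least 69.3, 123 and 146 CPM.

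Interferon regulators were part of the same list. IRF1, a transcription factor induced by interferon, had CPM of 4.53, 7.89 and 6.51 at day 0 and 6.77, 7.27 and 6.89 at day 7. Drug groups had 39.7, 56.2 and 47.6 with bleomycin, 36.1, 29.6 and 33.2 with doxorubicin, 25.1, 27.7 and 23.8 with ND-646, 24.9, 20.6 and 20.2 with palbociclib, 18.4, 19.2 and 14.6 with TVB-3166, and 15.024, 10.6 and 11.2 with alisertib. All drug libraries lay above all untreated ones. IRF1 rose with each drug, with log2 fold changes from 0.96 ± 0.21 with alisertib (SE, adjusted p = 0.00598) to 2.93 ± 0.22 with bleomycin (adjusted p = 2.56e-05). NLRC5, which drives antigen presentation genes, rose with each drug against day 0 as well, from 0.203, 0.543 and 0.207 CPM at day 0 to 5.95, 6.52 and 6.95 CPM with bleomycin. The day-0 values rest on few reads. Untreated cells at day 7 already had 0.661, 0.8396 and 0.623 CPM. Palbociclib cells, at 0.8402, 0.857 and 0.957 CPM, and alisertib cells, at 0.912, 1.20 and 0.918 CPM, lay little above these. Libraries of the other drugs lay between those of alisertib and bleomycin.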

How the data were processed

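RNA-seq of SKBR3 cells, 3 libraries in each of 8 groups, was analysed from the deposited table of raw read counts per gene. Per the labels and the study's methods, HISAT2 was used by the authors to align reads (build GRCh37) and StringTie to assemble transcripts. How the counts were summed per gene, and with which strand setting, is not given in the sources used here. The labels name a stranded mRNA kit and the methods a stranded total RNA kit.

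Counts were filtered with filterByExpr, scaled by TMM and tested with edgeR's quasi-likelihood functions glmQLFit and glmQLFTest (edgeR 4.0.16, limma 3.58.1, R 4.3.3), two-sided, on all genes, with p-values adjusted after Benjamini and Hochberg and a threshold of 0.05. Comparisons of 2 groups used the libraries of both, and the comparisons among drugs used all 24. DESeq2 1.42.0, RLE size factors, no filter, a filter of 10 counts in every library, a replicate block, 1 fit of all 24 libraries, single libraries left out and day-7 cells as the reference were the alternatives. Library totals without TMM were added after seeing the data. The tests were checked on simulated data.

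Deviations from the group means correlated in each same-numbered pair of ND-646 and TVB-3166 (r = 0.213 to 0.380) and in each pair of bleomycin and of alisertib with day-7 cells (r = 0.105 to 0.218), so these numbers were taken as pairs. All 3 correlations were above 0.1 in 9 of 15 pairs of drugs, and the block was fitted to the comparisons among drugs too. In each comparison with day 0, at least 1 of the 3 correlations was not above 0.1. Values of every library are given for members picked by role (PSMB5, PSMB6, PSMB7, PSMB10, PSMC4, PSMD4, PSMD14, PSMG1, the 4 activators and both genes that are no subunits) and for the 3 largest changes of each comparison among members past the threshold whose libraries did not overlap. Other genes are named as examples chosen after their values were seen, and some results are not reported here. The members and lists were chosen with earlier results of these data known. Positions and transcript lengths came from GENCODE on GRCh37.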

Additional observations from a re-analysis of the deposited data

How the results depend on the processing

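Counts of members called stayed within 1.5 times of the reported ones under RLE size factors and under a filter of 10 counts in every library. A count in this section with no share of all genes beside it cannot be set against that share. Library totals without TMM, chosen after seeing the data, gave 22 lower and 1 higher with ND-646 against day 0, 1 higher with TVB-3166, 0 lower in untreated day-7 cells, 20 lower and 0 higher for the inhibitors of fatty acid synthesis against the other drugs, and 8 lower and 3 higher for DNA-damaging drugs against kinase inhibitors. One fit of all 24 libraries gave 29 lower with ND-646 and 5 at day 7. With no filter, 1 was higher with doxorubicin and 0 lower at day 7. DESeq2 gave 13 lower at day 7. With the replicate block, 9 were lower at day 7, and TVB-3166 against ND-646, where the numbers were taken as pairs, had 0 lower and 0 higher. Against day 7 the block gave 22 lower and 4 higher with bleomycin (24.9% and 23.7% of all genes). With alisertib it gave 19 lower and 0 higher (14.7% and 15.3%). Both drugs were also taken as pairs with day 7. Among drugs the block gave 9 lower and 8 higher for the inhibitors of fatty acid synthesis, 3 and 5 for DNA-damaging drugs, and 18 for any difference. The block moved no other count against day 0 or between drugs by over 1.5 times. Against day-7 cells in place of day 0, ND-646 had 5 lower and 1 higher, TVB-3166 1 higher, bleomycin 20 lower, alisertib 16 and doxorubicin 18. The cause of these shifts was not tested.

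With single libraries left out, lower members against day 0 numbered 6 to 39 with ND-646, 34 to 39 with TVB-3166, 26 to 32 with bleomycin, 29 to 37 with alisertib, 31 to 36 with doxorubicin, 33 to 38 with palbociclib and 0 to 2 at day 7. Higher members numbered 1 to 2 with ND-646, 1 to 2 with TVB-3166, 1 to 2 with doxorubicin, 2 to 4 with bleomycin, 2 with palbociclib, 0 with alisertib and 0 at day 7. TVB-3166 against ND-646 gave 0 lower and 0 to 1 higher. Inhibitors of fatty acid synthesis against other drugs gave 6 to 17 lower and 2 to 11 higher, with 4 and 5 higher without TVB-3166 replicates 1 and 2. DNA-damaging drugs against kinase inhibitors gave 2 to 5 lower and 4 to 10 higher, and any difference among drugs 13 to 29. Without ND-646 replicate 1 the counts were 39 lower for ND-646, 17 lower and 2 higher for inhibitors of fatty acid synthesis, 5 lower and 10 higher for DNA-damaging drugs, and 29 for any difference. Of 2890 alternative values for 17 named genes, 0 changed sign where a call was made, and 76 did so where none was. Calls of these genes were nevertheless lost in 82 values with single libraries left out, 19 against day 7 and 13 with library totals. They were also lost in 5 values with no filter, 4 in the fit of all 24 libraries, 1 with the replicate block and 1 with RLE size factors.

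Where leaving out a library left a group with 2, the fit assumes that they vary like the rest. PSMC3IP had as few as 25 reads in a library, and the other members were read more deeply. With 3 libraries per group, a difference that misses the threshold does not show equal levels.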
